A study of Mus musculus with 2 samples.

Results

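Pericytes of the mouse cortex were described from cells that carried their genes above a fixed share of the cell's transcripts. A cell was a member when it had at least 300 genes, at most 25% of its unique molecular identifiers (UMIs, which count captured transcript molecules) from mitochondrial genes, and at least 3 UMIs and 0.15% of all UMIs from Rgs5, Kcnj8, Higd1b and Atp13a5 together. Members also had to stay under 0.5% for the contractile genes Acta2, Myh11 and Tagln, under 0.4% for the collagens Col1a1, Col1a2 and Col3a1, and under 0.3% for the endothelial genes Cldn5, Flt1, Ly6c1 and Slco1a4. Of 14265 cells that passed the filters in both libraries, 215 were members. The N-PRα-KO library held 99 of them among 4196 cells, which is 2.36% with an exact Clopper-Pearson 95% interval of 1.92% to 2.87%, and the WT library held 116 among 10069 cells, 1.15% with an interval of 0.953% to 1.38%. The members were chosen by these shares of UMIs, so values of the rule's genes and the member counts are a description.

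The study profiled single cells from cortex taken with its meninges and enriched on magnetic beads for CD140a, the protein product of Pdgfra. The N-PRα-KO animals were Nestin-Cre;Pdgfraflox/flox mice, in which Cre driven by the Nestin promoter, active in neural stem and progenitor cells, removes the floxed receptor gene. The WT animals were labelled as C57BL/6J mice, and whether they were littermates of the mutants is not stated. Each genotype was 1 library, and age, sex and the number of animals behind a library are not given in the sources used here. Differences between the libraries are therefore values of 2 libraries with no replicate check, and genotype, animals, strain background and library cannot be told apart. Every interval given here is a 95% interval for counting error alone, and cells of 1 library were not used as replicates.

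Pericytes wrap the capillary endothelium and share its basement membrane. Endothelial PDGF-B acting on the receptor encoded by Pdgfrb recruits and keeps them, and in the brain they take part in the blood-brain barrier and in the control of capillary flow. They are the microvascular relatives of arteriolar smooth muscle cells, which carry the contractile proteins that most capillary pericytes lack. The ATP-sensitive potassium channel that Kcnj8 (pore) and Abcc9 (sulphonylurea receptor) encode is a known mark of brain pericytes. In the GENCODE annotation of GRCm38 both genes lie on the minus strand of chromosome 6, Kcnj8 at 142564837 to 142571614 and Abcc9 at 142587862 to 142702315. Kcnj8 is a gene of the rule and Abcc9 is not.

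The libraries differed in ways that bear on every ratio between them. Kept cells had a median depth of 5790.5 UMIs (N-PRα-KO) and 3284 UMIs (WT), and 50.3% of N-PRα-KO barcodes against 88.0% of WT barcodes passed the filters, since 4126 and 1329 barcodes were over the mitochondrial limit. Rgs5 had a UMI in 62.8% of N-PRα-KO microglia-like cells and in 7.60% of WT microglia-like cells, and Vtn in 47.1% and 3.57%, so mural transcripts in cells that should lack them were more frequent in the N-PRα-KO library. With every microglia-like cell thinned to 2000 UMIs, the shares for Rgs5 were 30.8% and 2.83%. An Xist UMI was found in 49 of the 99 N-PRα-KO members and a Y-linked UMI in 30, with both in 9, against 89, 1 and 1 of the 116 WT members. The libraries shared 105 barcodes, and no member barcode was shared between the member sets. Across genes, the N-PRα-KO over WT ratio among members went with the GC content of the last 500 transcript bases (Spearman correlation 0.416 across 2254 genes, which are not independent and share both libraries). In the core of members defined below the correlation was 0.468 across 2366 genes. The median log2 ratio there ran from -0.58 among genes of lowest GC content to 0.84 among those of highest. The part of these features in the ratios below was not tested.

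The rule found different cells in the 2 libraries. Kdr, the main VEGF receptor of endothelial cells and no gene of the rule, stood at 178 CPM in the N-PRα-KO members and at 1543 CPM in the WT members, where CPM is the UMI count of a gene summed over cells and scaled to a common total of 1000000 UMIs. A list of 16 endothelial markers outside the rule took 0.5% or more of the UMIs in 6 of 99 N-PRα-KO members and in 80 of 116 WT members. Among all kept cells above that 0.5% level, the 4 endothelial genes of the rule stayed under its 0.3% limit in 88 of 603 cells (14.6%) of the N-PRα-KO library and in 269 of 467 cells (57.6%) of the WT library. Most WT members thus had pericyte and endothelial transcripts in the same barcode, and their median share from the rule's pericyte genes was 0.553% of UMIs against 2.37% in N-PRα-KO members. A doublet caller, Scrublet, marked 2 N-PRα-KO members and 1 WT member.

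**Figure D1:**
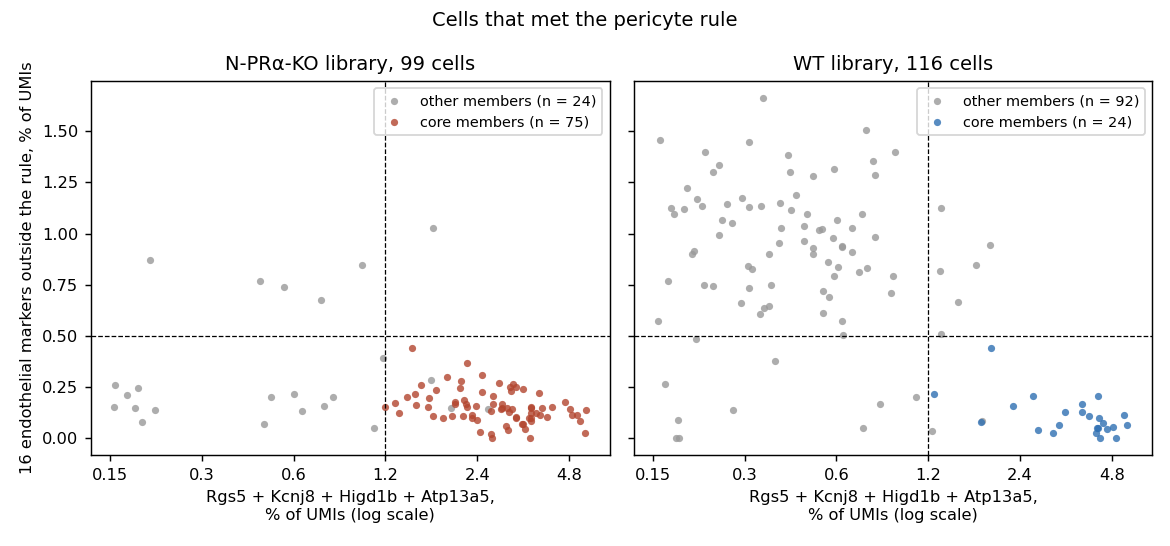
Each point is 1 member, with the share of its UMIs from the 4 pericyte genes of the rule on a log axis (x) and from 16 endothelial markers outside the rule (y), for the N-PRα-KO library on the left and the WT library on the right. Coloured points are the 75 and 24 core members, all to the right of 1.2% and under 0.5%, and 80 of 116 WT members lie at or above the 0.5% line, against 6 of 99 N-PRα-KO members.

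Members near the lower edge of the rule had lower levels of Abcc9 than members with 1.2% or more. The 6 N-PRα-KO members just inside, at 0.15% to 0.2% of UMIs, had no Abcc9 UMI and 3305 CPM of Slc1a3, an astrocyte glutamate transporter, and the 14 cells just outside, at 0.1% to 0.15%, had Abcc9 at 34.5 CPM and Slc1a3 at 1492 CPM. Vtn, a pericyte marker outside the rule, had 171 CPM just inside and 612 CPM just outside. In the WT library the 11 cells just inside had Abcc9 at 167 CPM and Kdr at 1336 CPM, and the 13 cells just outside had 105 CPM and 597 CPM, with Vtn at 153 CPM inside and 105 CPM outside. At 1.2% or more, the 79 N-PRα-KO members had Abcc9 at 1574 CPM and the 32 WT members at 1604 CPM. A core was therefore taken, after these values were seen, of members with at least 1.2% of UMIs from the rule's pericyte genes, under 0.5% from the 16 endothelial markers and under 0.3% from the class genes of astrocytes, microglia, ependymal cells and oligodendrocyte precursors. It held 75 N-PRα-KO cells (1.79% of kept cells, interval 1.41% to 2.24%) and 24 WT cells (0.238%, interval 0.153% to 0.354%), with 317916 and 68870 UMIs and medians of 3556 and 2717 UMIs per cell. No core member was marked by Scrublet. Fewer pericytes in a library and less recovery of them cannot be told apart from such shares.

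Most pericyte markers outside the rule were measured in the core of both libraries. Of 25 pericyte markers outside the rule, 24 reached 100 CPM in the core of at least 1 library, and Ggt1, with 3.15 CPM in the N-PRα-KO core and 0 CPM in the WT core, did not. Summed, the 25 markers took 2.10% of UMIs in the N-PRα-KO core (0.860% to 3.82% per cell) and 1.82% in the WT core (0.759% to 3.99% per cell), against 1.13% and 1.32% in smooth muscle-like cells and 0.0424% and 0.00916% in microglia-like cells. Every core cell was therefore above the summed microglial level, while the lowest core cells were below the smooth muscle-like level. Vtn, which encodes the matrix protein vitronectin, had 4715 CPM in the N-PRα-KO core and 1742 CPM in the WT core, beside 133 CPM and 11.5 CPM in microglia-like cells. Abcc9 had 1623 CPM and 1902 CPM in the cores, beside 8.45 CPM and 3.49 CPM in microglia-like cells. A UMI of Abcc9 was found in 73.3% of N-PRα-KO and 54.2% of WT core cells (68.1% and 52.9% with cells thinned to 2000 UMIs), against 4.93% and 0.930% of microglia-like cells. Pdgfrb, the receptor for PDGF-B, had 727 CPM in the N-PRα-KO core and 508 CPM in the WT core. Cspg4, which encodes the NG2 proteoglycan, had 554 CPM and 203 CPM. Notch3, the mural Notch receptor, had 1736 CPM and 1074 CPM, and Mcam, the adhesion molecule CD146, had 632 CPM and 668 CPM.

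Marker lists of other classes were summed over the core in the same way. The 24 smooth muscle markers outside the rule took 0.632% of UMIs in the N-PRα-KO core and 0.780% in the WT core, with 1 and 7 of them at 0, against 2.02% and 1.35% in smooth muscle-like cells and 0.260% and 0.0639% in all other kept cells. The core was thus below the smooth muscle-like level and above the rest. Cnn1, the calponin of mature smooth muscle, had 3.15 CPM in the N-PRα-KO core and 0 CPM in the WT core. The 11 astrocyte markers took 0.623% (N-PRα-KO) and 0.347% (WT) of core UMIs, with 0 and 1 at 0, beside 0.167% and 0.0718% in microglia-like cells. The 16 endothelial markers took 0.161% and 0.110%, with 0 and 4 at 0, and the 10 microglia markers 0.0767% and 0.0305%, with 0 and 3 at 0. The definition of the core capped the endothelial list and the class genes of astrocytes and microglia, so these 3 levels are a description only. The fibroblast markers outside the rule took 0.0698% over 15 genes and 0.0494% over the 14 genes found in the WT table, with 2 and 9 at 0. Pdgfra, the gene deleted in the N-PRα-KO mice and the target of the sort, had 12.6 CPM in the N-PRα-KO core (4 UMIs) and 72.6 CPM in the WT core (5 UMIs), against 691 CPM and 744 CPM in the fibroblast-like cells of the same libraries. The counts come from transcript 3′ ends, so a level of Pdgfra outside the deleted exons does not check the deletion. Cells with Pdgfra on their surface were the ones enriched, and how the core members came through the sort was not tested.

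Against their mural neighbours, pericytes of the N-PRα-KO library had more Abcc9, Sod3, Sfrp2 and Ntn1 and less Eln. The comparison summed the UMIs of all 99 members and of the 246 smooth muscle-like cells, left out every gene of the rules, and looked at genes that reached 100 CPM in at least 1 of the classes compared. Of 2003 such genes, 196 (9.79%) were past 2-fold higher and 184 (9.19%) past 2-fold lower in members. Abcc9 had 1169 CPM in members and 20.8 CPM in smooth muscle-like cells, a log2 ratio of 5.81 (5.25 to 6.42). Sod3, the extracellular superoxide dismutase, had 1370 CPM and 134 CPM (log2 3.35, 3.11 to 3.60). Sfrp2, a secreted Wnt modulator, had 158 CPM and 3.09 CPM, and Ntn1, the guidance cue netrin-1, had 138 CPM and 6.95 CPM. Unc5b, a netrin receptor, had 136 CPM and 6.95 CPM, and Chp2, a calcineurin-like calcium-binding protein, had 130 CPM and 1.54 CPM. On the other side, Eln, which encodes elastin, had 267 CPM in members and 4715 CPM in smooth muscle-like cells (log2 -4.14, -4.40 to -3.90), and Actg2, smooth muscle gamma-actin, had 4.01 CPM and 257 CPM. The smooth muscle-like cells were chosen by contractile genes, so the direction of such genes is fixed by the choice. They were not held under the pericyte minimum. Their median share from the rule's pericyte genes was 1.30% of UMIs in the N-PRα-KO library and 3.03% in the WT library. Of the 25 pericyte markers, 23 could be compared, 11 were past 2-fold higher and 1 lower, with a median log2 ratio of 0.96 against 0.11 over all genes. Apln, which encodes the peptide hormone apelin, also ranked high, but 24 of the 27 Apln UMIs of the N-PRα-KO core came from 1 cell.

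Against endothelial-like cells, members had more Gucy1a1 and Gucy1b1 and less Edn1. Gucy1a1 and Gucy1b1 encode the subunits of soluble guanylyl cyclase, the nitric oxide receptor. Gucy1a1 had 391 CPM in members and 8.18 CPM in endothelial-like cells (log2 5.58, 4.98 to 6.23), and Gucy1b1 had 349 CPM and 4.40 CPM (log2 6.31, 5.52 to 7.21). Edn1, the endothelin ligand, had 4.01 CPM in members and 351 CPM in endothelial-like cells, while Ednra, its receptor, had 330 CPM in the core and 7.86 CPM in endothelial-like cells. Of 2155 genes compared with endothelial-like cells, 319 (14.8%) were past 2-fold higher and 303 (14.1%) lower.

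Against fibroblast-like cells, Art3, an ADP-ribosyltransferase family gene, had 467 CPM in members and 6.46 CPM in fibroblast-like cells (log2 6.18, 5.71 to 6.68), and Notch3 had 1285 CPM and 27.2 CPM (log2 5.57, 5.33 to 5.81). Dcn, the fibroblast proteoglycan decorin, had 96.3 CPM in members and 2598 CPM in fibroblast-like cells. Of 2142 genes compared, 278 (13%) were past 2-fold higher and 257 (12%) lower. Against all other kept cells of the library, 244 of 2149 genes (11.4%) were higher and 275 (12.8%) lower, and Abcc9, Tbxa2r, Sfrp2, Mndal, Cox4i2 and Ifi203 were among the leading ones. Wfdc18 led all 4 comparisons, yet all 299 of its UMIs came from 1 member of 28299 UMIs, which also carried 115 Olfr115 UMIs and was not in the core. In the WT library, the core was on the same side of its neighbours for each of the ranked genes that had enough counts for a ratio, namely 7 of 7 genes higher and 3 of 3 lower than smooth muscle-like cells, 7 of 7 and 4 of 4 for endothelial-like cells, 7 of 7 and 4 of 4 for fibroblast-like cells, and 7 of 7 higher than all other kept cells. These are cells the ranking did not use, though the rule chose both sets by the same genes. The WT smooth muscle-like class held 14 cells, so its ratios are the least precise.

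**Figure D2:**
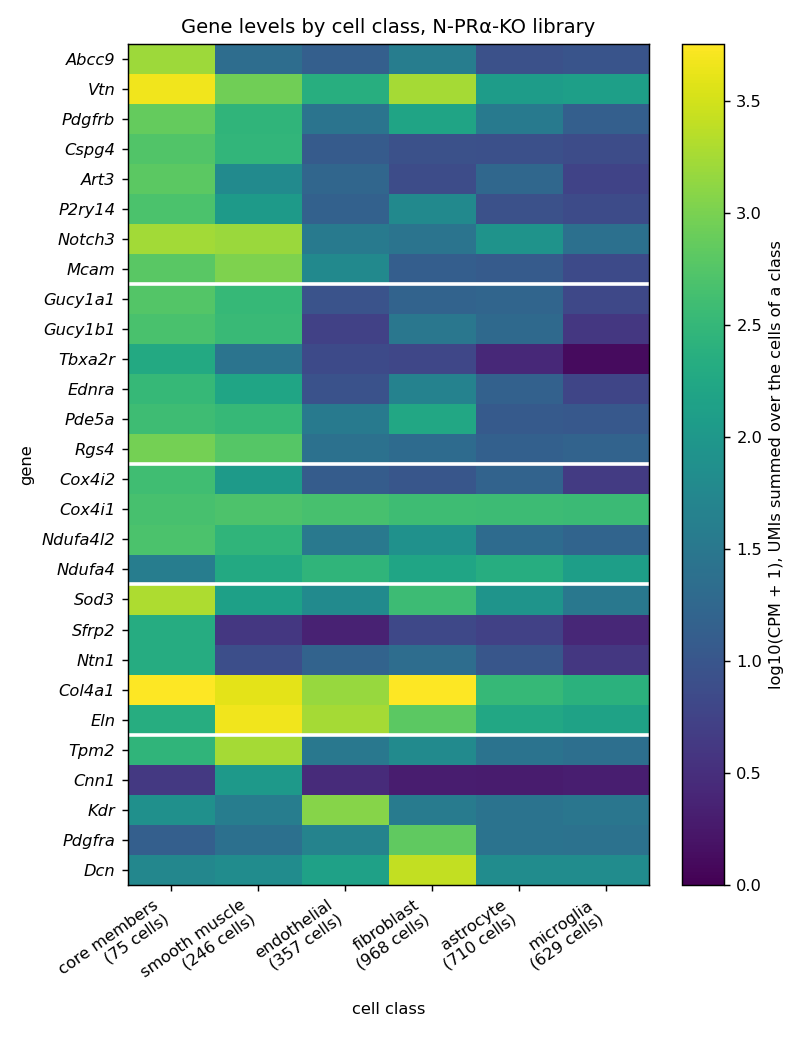
Levels of named genes (rows) in 6 cell classes of the N-PRα-KO library (columns), as log10(CPM + 1) of UMIs summed over the cells of a class, with white lines between identity, vascular tone, respiratory chain, secreted and other-class genes. Abcc9 is at 1623 CPM in the core and at 20.8 CPM in smooth muscle-like cells, while Eln shows the opposite order.

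Receptors and downstream genes of vascular tone were measured in both cores. Tbxa2r, the thromboxane A2 receptor, had 189 CPM in the N-PRα-KO core and 14.5 CPM in the WT core, the second value being 1 UMI. P2ry14, a receptor for UDP-sugars, had 500 CPM and 174 CPM. Gper1, a G protein-coupled oestrogen receptor, had 286 CPM and 145 CPM, and Ednra 330 CPM and 174 CPM. S1pr3, a receptor for sphingosine-1-phosphate, had 418 CPM and 189 CPM. Downstream, Gucy1a1 had 557 CPM and 479 CPM, and Pde5a, the phosphodiesterase that breaks down cyclic GMP, had 384 CPM and 508 CPM. Rgs4, a regulator of G protein signalling beside the rule gene Rgs5, had 931 CPM and 1191 CPM. Of the 12 genes of the vasoactive list that reached 100 CPM in a core, 2 were past 2-fold higher and 2 lower in the N-PRα-KO core, with a median log2 ratio of -0.07. Over all 2371 genes compared between the cores, 16.1% were past 2-fold higher and 16.3% lower, with a median of -0.15, which is the background for every list of the core.

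Channels, pumps and junction genes were shared with smooth muscle to different degrees. Ano1, a calcium-activated chloride channel, had 359 CPM in the N-PRα-KO core and 494 CPM in the WT core, beside 276 CPM and 187 CPM in smooth muscle-like cells. Atp2a3, a calcium pump of the endoplasmic reticulum, had 368 CPM in the N-PRα-KO core and 87.1 CPM in the WT core, beside 98.8 CPM and 0 CPM in smooth muscle-like cells. Gjc1, the gap junction protein connexin 45, had 934 CPM and 552 CPM in the cores, beside 444 CPM and 514 CPM in smooth muscle-like cells. Slc6a20a, a transporter of imino acids, had 374 CPM and 203 CPM in the cores, but fibroblast-like cells held 427 CPM and 1157 CPM. Of the 12 ion channel genes at the minimum, 2 were past 2-fold higher and 0 lower in the N-PRα-KO core, and of 12 transporters and pumps, 3 and 0, against 16.1% and 16.3% over all genes.

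The basement membrane list was among the most completely measured, with 17 of 19 genes at 100 CPM or more in a core. Col4a1, a chain of type IV collagen, had 5674 CPM in the N-PRα-KO core and 4908 CPM in the WT core, and Col4a2, its partner chain, 2957 CPM and 1496 CPM. Lamc1, the laminin γ1 chain, had 1592 CPM and 1016 CPM, and Nid1, which bridges laminin and collagen, had 2038 CPM and 2889 CPM. These were not levels of pericytes alone, since N-PRα-KO fibroblast-like cells held Col4a1 at 5714 CPM. Of the 17 genes, 5 were past 2-fold higher and 2 lower in the N-PRα-KO core than in the WT core, against 16.1% and 16.3% over all genes. The median log2 ratio was 0.51 against -0.15 over all genes. Relative to the same genes in 4 other classes (endothelial-, fibroblast-, microglia- and astrocyte-like), the median of the list was -1.14.

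Ndufa4l2 and Cox4i2, tissue variants of respiratory chain subunits, took a larger share of their pairs in the core than in smooth muscle-like or endothelial-like cells. UMIs count molecules whatever their length, and the share of a paralogue pair was compared between classes of the same library. The percentages themselves differed between the libraries, so only the order of the classes is read. Ndufa4l2 made 92.9% (88.0% to 96.3%) of the UMIs of Ndufa4l2 and Ndufa4 together in the N-PRα-KO core, 60.4% in smooth muscle-like cells and 10.3% in endothelial-like cells. In the WT library the share was 24 of 32 UMIs, or 75% (56.6% to 88.5%), in the core, 63.2% in smooth muscle-like cells and 0.680% in endothelial-like cells. Cox4i2, the isoform of cytochrome c oxidase subunit 4 known from lung and hypoxia-sensing tissue, made 46.5% (40.5% to 52.6%) of the pair with Cox4i1 in the N-PRα-KO core, 18.0% in smooth muscle-like cells and 2.43% in endothelial-like cells. In the WT core it made 85.0% (62.1% to 96.8%) of only 20 UMIs, and Cox4i1 was low in that whole library. The order of core, smooth muscle-like and endothelial-like cells was thus the same in both libraries for both pairs, but the WT intervals of core and smooth muscle-like cells overlapped. Other pairs did not have such shares. Cox7a1 had 1 UMI beside 64 of Cox7a2 in the N-PRα-KO core (1.54%) and 0 beside 7 in the WT core, and Cox6a2 had 1 UMI beside 178 of Cox6a1 (0.559%) and 0 beside 47. The pair of Higd1b with Higd1a includes a rule gene and is not read.

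Transcription factors of the mural lineage were present in both cores. Zic1, a zinc finger factor of meningeal and brain mural cells, had 632 CPM in the N-PRα-KO core and 653 CPM in the WT core, and Foxf2, a forkhead factor needed for brain pericytes, had 211 CPM and 305 CPM. Ebf1 had 535 CPM and 494 CPM, and the T-box factor Tbx18, a mural lineage marker, 186 CPM and 276 CPM. Heyl, a Notch target, had 488 CPM and 450 CPM. Of 14 factors at the minimum, 1 was past 2-fold higher and 1 lower in the N-PRα-KO core, against 16.1% and 16.3% over all genes. Zic1 and Tbx18 were also high in N-PRα-KO fibroblast-like cells, at 619 CPM and 754 CPM, while Heyl was at 91.0 CPM there.

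The genes that varied most among members included genes of astrocytes and genes of pericytes. With 91 N-PRα-KO members thinned to 2000 UMIs and 8 shallower ones left out, the median ratio of variance to mean over 1334 genes was 1.14 and the 90th percentile 1.67. The highest values belonged to Slc1a3 (15.1) and Nnat (11.9), followed by the growth factor gene Ptn (8.34) and the nuclear RNA Malat1 (7.83). In the core the ratios of Slc1a3, Nnat, Dbi and Cst3 were 0.960, 0.962, 1.08 and 1.01, close to the 1 that counting alone gives. The definition of the core capped the class genes of astrocytes, so the fall of astrocyte genes such as Slc1a3 is fixed in part by the choice. Ptn (5.84), Sod3 (5.46), Vtn (5.0) and Malat1 (7.09) stayed spread over the core, so they varied between cells that all carried the pericyte genes.

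Part of that spread went with Abcc9. In the N-PRα-KO core 44 of 75 cells (58.7%) held 2 or more Abcc9 UMIs, with a median of 9 and a maximum of 37, 11 held 1, and 20 (26.7%) held none. In the WT core 10 of 24 cells (41.7%) held 2 or more, with a median of 13 and a maximum of 24, 3 held 1, and 11 (45.8%) held none. Median depths were close, at 3819 UMIs in Abcc9-positive cells (2 or more UMIs) and 4104.5 UMIs in Abcc9-zero cells of the N-PRα-KO core, and 2687 and 2815 UMIs in the WT core. The share of UMIs from Acta2, Myh11 and Tagln was apart, with medians of 0.0294% in Abcc9-positive and 0.344% in Abcc9-zero cells of the N-PRα-KO core, and 0% and 0.406% in the WT core. The zero cells thus lay nearer to the 0.5% contractile limit of the rule, while the summed rule genes had like medians, 2.70% and 3.05% in the N-PRα-KO core and 4.35% and 3.84% in the WT core.

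**Figure D3:**
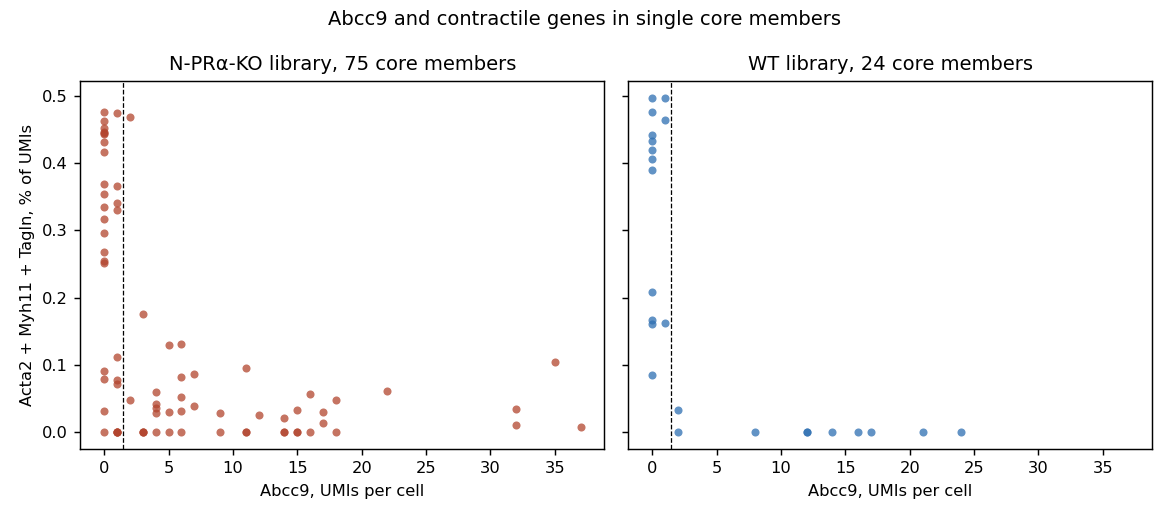
Each point is 1 core member, with its Abcc9 UMIs (x) and the share of its UMIs from the contractile genes Acta2, Myh11 and Tagln (y), N-PRα-KO on the left and WT on the right. Cells to the right of the dashed line have 2 or more Abcc9 UMIs, and the Abcc9-zero cells have median contractile shares of 0.344% and 0.406%, against 0.0294% and 0% for the cells with 2 or more.

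Sod3, Sfrp2 and Ntn1, named above against smooth muscle-like cells, were also higher in Abcc9-positive than in Abcc9-zero cells. The split was chosen after the data were seen and its values are a description. In the N-PRα-KO core 282 of 2186 genes (12.9%) were past 2-fold higher and 288 (13.2%) lower in Abcc9-positive than in Abcc9-zero cells, and in the WT core 264 of 2255 (11.7%) and 253 (11.2%). Sod3 had 2745 CPM in Abcc9-positive and 241 CPM in Abcc9-zero cells of the N-PRα-KO core, and 1127 CPM and 0 CPM in the WT core. Sfrp2 had 327 CPM and 0 CPM in the N-PRα-KO core, a log2 ratio of at least 3.18 with the 0 set to 3 UMIs over the group, and 704 CPM and 0 CPM in the WT core. Ntn1 had 317 CPM and 0 CPM in the N-PRα-KO core, and 387 CPM and 0 CPM in the WT core. Itih5, a hyaluronan-binding matrix protein, had 1100 CPM and 169 CPM, and 1021 CPM and 61.7 CPM. Cdh2, the N-cadherin of pericyte contacts with endothelium, had 302 CPM and 36.1 CPM, and 634 CPM and 216 CPM. Cthrc1, a secreted matrix-associated protein, had 223 CPM and 12 CPM, and 528 CPM and 0 CPM. Top2a ranked too, but 21 of its UMIs came from 1 cell.

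Of 24 pericyte markers outside the rule at the minimum in the N-PRα-KO core, 7 were past 2-fold higher and 1 lower in Abcc9-positive cells, with a median log2 ratio of 0.57, and in the WT core 15 of 23 were higher and 1 lower, with a median of 1.41 against -0.13 over all genes. Over all genes 12.9% were higher and 13.2% lower in the N-PRα-KO core, and 11.7% and 11.2% in the WT core. Abcc9 is itself on the marker list, so its place among the higher markers is fixed by the split, and it counts in both medians. Art3 had 837 CPM in Abcc9-positive and 217 CPM in Abcc9-zero cells of the N-PRα-KO core, and 1021 CPM and 61.7 CPM in the WT core. Kcnj8, the channel partner of Abcc9, had 793 CPM and 133 CPM in the N-PRα-KO core, and 739 CPM and 30.9 CPM in the WT core. Ptn had 3523 CPM and 1205 CPM in the N-PRα-KO core, and 4577 CPM and 648 CPM in the WT core. Pdgfrb had 773 CPM and 735 CPM in the N-PRα-KO core, but 704 CPM and 309 CPM in the WT core. Cox4i2 had 441 CPM and 361 CPM in the N-PRα-KO core, and 423 CPM and 123 CPM in the WT core. Rgs5 had 23708 CPM in Abcc9-positive and 32383 CPM in Abcc9-zero cells of the N-PRα-KO core, and 35772 CPM and 34840 CPM in the WT core.

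Cavin1, Cav1, Aoc3, Rcan2, Timp3 and Ccnd2 were higher in Abcc9-zero cells. Cavin1, which builds caveolae, had 144 CPM in Abcc9-positive and 1397 CPM in Abcc9-zero cells of the N-PRα-KO core, and 0 CPM and 926 CPM in the WT core. Cav1, the caveolin it works with, had 29.7 CPM and 422 CPM, and 70.4 CPM and 771 CPM. Aoc3, a vascular amine oxidase of smooth muscle, had 29.7 CPM and 422 CPM, and 0 CPM and 833 CPM. Rcan2, a calcineurin regulator, had 4.95 CPM and 313 CPM, and 0 CPM and 339 CPM. Timp3, a metalloproteinase inhibitor, had 327 CPM and 1891 CPM, and 70.4 CPM and 339 CPM. Ccnd2, cyclin D2, had 139 CPM and 795 CPM, and 317 CPM and 2438 CPM. Of 11 smooth muscle markers outside the rule at the minimum in the N-PRα-KO core, 0 were past 2-fold higher and 8 lower in Abcc9-positive cells, with a median log2 ratio of -1.69 against 0.01 over all genes, and in the WT core 1 of 13 was higher and 7 lower. Of 11 genes of the vasoactive list, 3 were past 2-fold higher and 2 lower in Abcc9-positive cells of each core. The shares over all genes were 12.9% higher and 13.2% lower in the N-PRα-KO core, and 11.7% and 11.2% in the WT core.

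The ranking made in the N-PRα-KO core held in the WT core for every gene with enough counts. Of 15 genes ranked as higher in Abcc9-positive cells, 10 had a WT ratio, all 10 were above 0 and all 10 past 2-fold. Of 16 ranked as lower, 13 had a WT ratio, all 13 were below 0 and 10 past 2-fold. In the N-PRα-KO library the smooth muscle-like level was nearer to the Abcc9-zero than to the Abcc9-positive level for 12 of the 15 and for 16 of the 16. The WT groups were 10 and 11 cells, and both splits used the same gene.

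**Figure D4:**
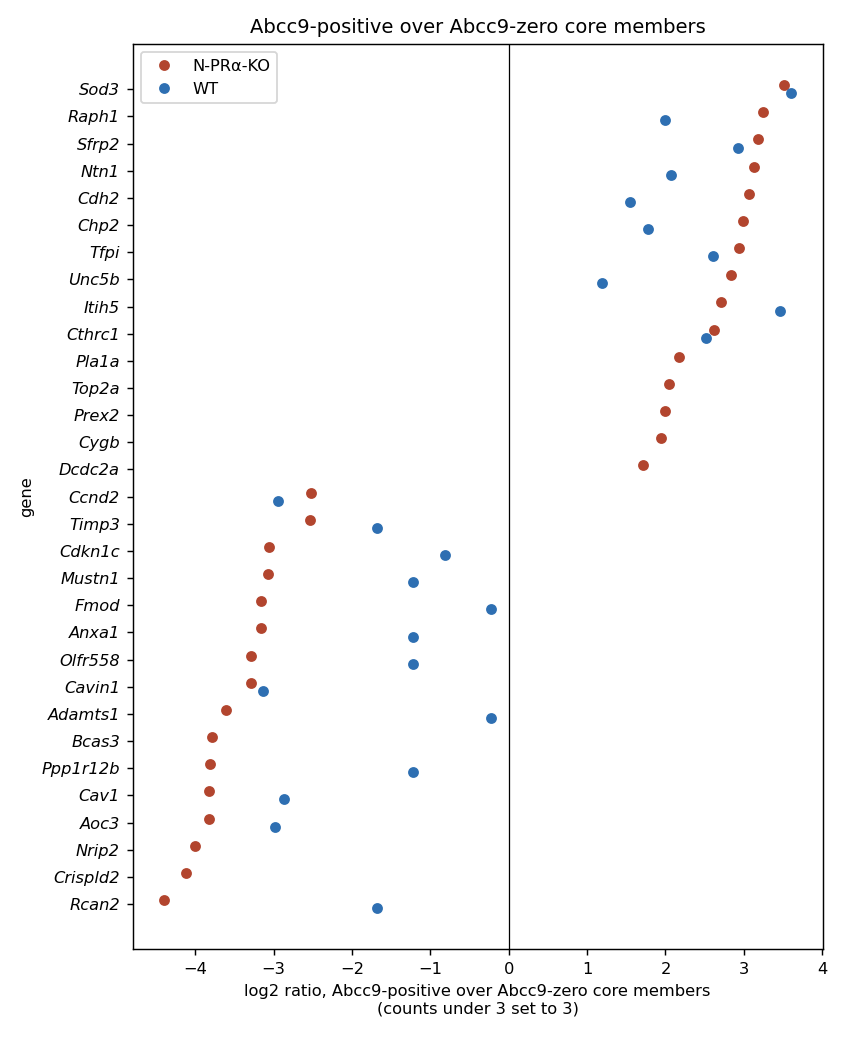
Log2 ratios of CPM in Abcc9-positive over Abcc9-zero core members (x) for the 31 ranked genes (y), in the N-PRα-KO library (red, used for the ranking) and the WT library (blue, where a ratio could be computed), with counts under 3 set to 3. All 23 blue points lie on the same side of 0 as their red partner.

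Between the libraries, the pericyte markers of the core differed less than the tally over all members would give. Over all members 461 of 2257 genes (20.4%) were past 2-fold higher and 370 (16.4%) lower in N-PRα-KO than in WT, and 21 of 23 pericyte markers were past 2-fold higher, with a median log2 ratio of 1.63. Within the core 381 of 2371 genes (16.1%) were past 2-fold higher and 386 (16.3%) lower, with a median of -0.15 over all genes. Of 24 pericyte markers, 4 were then past 2-fold higher and 0 lower, with 13 above 0 and 11 below and a median of 0.49. Abcc9 showed the change most plainly, at 1169 CPM in N-PRα-KO and 558 CPM in WT members, but 1623 CPM and 1902 CPM in the cores (log2 -0.23, -0.51 to 0.06). The counting interval included 0 for Mcam, Zic1, Art3, Cox4i2 and Ndufa4l2 in the core as well, which does not show that they were equal.

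The 4 markers past 2-fold higher in the N-PRα-KO core were Vtn, Cspg4, P2ry14 and Ifitm1. Vtn had a log2 ratio of 1.44 (1.17 to 1.72), and 1.55 without the cell that held most of its UMIs in each library. In the 4 other classes the median ratio of Vtn was 3.0. Microglia-like cells had Vtn at 133 CPM (N-PRα-KO) and 11.5 CPM (WT), and astrocyte-like cells at 119 CPM and 17.7 CPM. The cores had 4715 CPM and 1742 CPM, so the ratios in those classes compare levels far under those of the core. Cspg4 had 1.45 (0.66 to 2.35) in the core, and a median of -0.40 in the other classes. P2ry14 had 1.52 (0.68 to 2.50) in the core and 2.24 in the others, and Ifitm1, an interferon-induced membrane protein, had 2.13 (0.86 to 3.78) and 3.07. In smooth muscle-like cells, of which the WT library held 14, the ratios were -0.41 for Vtn, -0.26 for Cspg4, -0.75 for P2ry14 and 0.04 for Ifitm1. Whether the core differed from the other classes was not tested. Sod3 was also higher, at 1963 CPM in the N-PRα-KO core and 465 CPM in the WT core (log2 2.08, 1.57 to 2.64, other classes 2.46). Cald1, the actin-binding caldesmon, had 3674 CPM and 5576 CPM (log2 -0.60, -0.77 to -0.43, other classes 0.54).

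**Figure D5:**
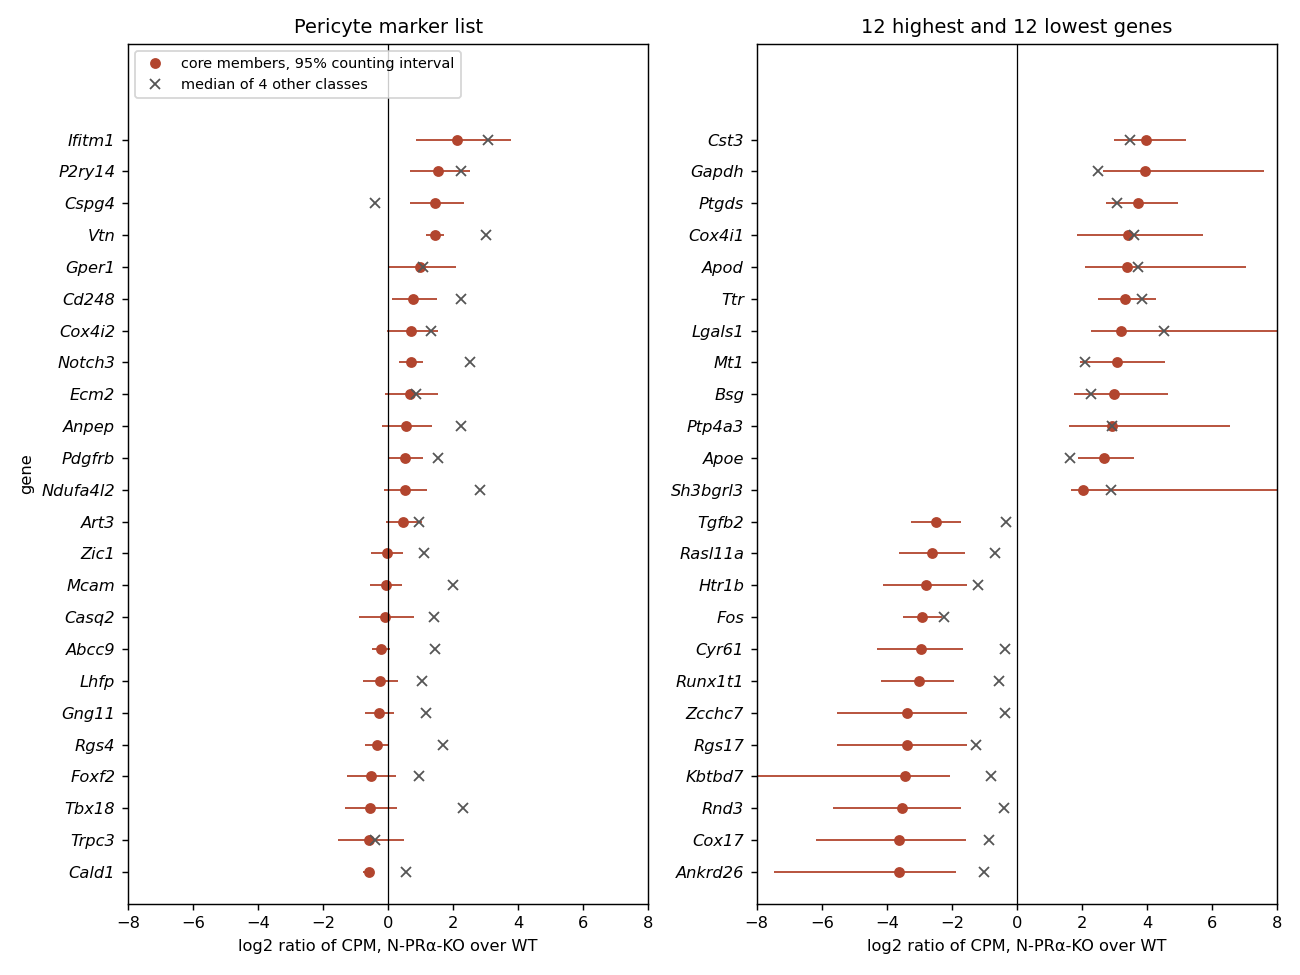
Log2 ratio of CPM in N-PRα-KO over WT (x) for the pericyte marker list on the left and the 12 highest and 12 lowest core genes on the right (y), with core members as red points with 95% counting intervals and the median ratio of 4 other cell classes as grey crosses. Lines that reach the edge of the axis go beyond it or are open on that side; the crosses of the 12 highest genes lie between 1.63 and 4.51, and those of Tgfb2, Rnd3 and Cyr61 at -0.34, -0.41 and -0.37.

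The 12 genes with the highest ratios in the core were also higher in the N-PRα-KO library in other classes, with median ratios of 1.63 to 4.51. Cst3, the protease inhibitor cystatin C, had 1834 CPM in the N-PRα-KO core and 116 CPM in the WT core (log2 3.98, other classes 3.47). Ptgds, a prostaglandin D synthase of the meninges, had 1532 CPM and 116 CPM (log2 3.72, other classes 3.09), and Ttr, the choroid plexus protein transthyretin, had 1733 CPM and 174 CPM (log2 3.31, other classes 3.85). These levels were not particular to pericytes. In N-PRα-KO microglia-like and astrocyte-like cells, Ttr had 1531 CPM and 1641 CPM and Ptgds 1472 CPM and 1453 CPM, near the core. Cst3 was higher there than in the core, at 12394 CPM and 12936 CPM. Gapdh, a glycolytic enzyme, had 670 CPM and 29.0 CPM (log2 3.94, other classes 2.50), and Mt1, a metallothionein, 739 CPM and 87.1 CPM (log2 3.08, other classes 2.09). The UMIs of Cst3 came from all 75 cells of the N-PRα-KO core and from 7 of the 24 WT cells. All 5 metallothionein and glucocorticoid genes at the minimum were past 2-fold higher, against 16.1% over all genes. Their median log2 ratio was 1.46, against -0.15 over all genes, and was lower than in the other classes by a median of 1.04.

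Tgfb2, Pdgfb, Runx1t1, Rnd3, Nrarp and Ccnd2 were past 2-fold lower in N-PRα-KO than in WT core members. Tgfb2, a TGF-β ligand, had 88.1 CPM in the N-PRα-KO core and 494 CPM in the WT core, a log2 ratio of -2.49 (-3.26 to -1.72) against a median of -0.34 in the other classes, with UMIs from 20 of 75 cells (at most 2 each) and from 16 of 24 cells (at most 4 each). In the Abcc9-positive cells alone it had 69.4 CPM and 246 CPM, a ratio of -1.83. Pdgfb, the endothelial ligand of the receptor that pericytes carry, had 25.2 CPM and 174 CPM (log2 -2.79, -4.29 to -1.38), and 44.1 CPM and 164 CPM over all members. Runx1t1, a transcriptional corepressor, had 37.7 CPM and 305 CPM (log2 -3.01, other classes -0.56). Rnd3, which encodes a small GTPase, had 12.6 CPM and 145 CPM (log2 -3.53, other classes -0.41). Nrarp, a Notch target, had 123 CPM and 450 CPM (log2 -1.88, -2.59 to -1.15, other classes -0.02), and Ccnd2 had 359 CPM and 1321 CPM (log2 -1.88, other classes -1.0). Of 2 cell division genes at the minimum, 0 were past 2-fold higher and 0 lower, against 16.1% and 16.3% over all genes.

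Immediate early genes, which cells switch on soon after a stimulus, were mostly lower in the core of the N-PRα-KO library. Of 11 at the minimum, 0 were past 2-fold higher and 8 lower, against 16.1% and 16.3% over all genes. The median log2 ratio was -1.51 against -0.15 over all genes. Fos, a transcription factor of this group, had 126 CPM in the N-PRα-KO core and 944 CPM in the WT core (log2 -2.91, other classes -2.23), and Dusp1, a phosphatase of MAP kinases, had 62.9 CPM and 305 CPM (log2 -2.28, other classes -1.10). Egr1, a transcription factor of the same response, had 283 CPM and 203 CPM, with an interval that included 0. Taken relative to the other classes, the median of the list was -0.45.

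Several of these lower genes moved with Abcc9 as well. Abcc9-zero cells made 26.7% of the N-PRα-KO core and 45.8% of the WT core, and they held more Ccnd2 than Abcc9-positive cells in both libraries. Within Abcc9-zero cells alone, Ccnd2 had 795 CPM (N-PRα-KO) and 2438 CPM (WT), a log2 ratio of -1.62, and within Abcc9-positive cells 139 CPM and 317 CPM (log2 -1.19). Htr1b, a serotonin receptor, had 84.3 CPM in N-PRα-KO and 463 CPM in WT Abcc9-zero cells, and 9.91 CPM and 0 CPM in Abcc9-positive cells. Cav1, at 138 CPM in the N-PRα-KO core and 465 CPM in the WT core, and Aoc3, at 138 CPM and 436 CPM, were genes of the zero cells in both libraries.

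Over all members, genes of the endothelium were among the lowest in the N-PRα-KO library. Nampt, an enzyme of NAD synthesis, had 84.2 CPM in N-PRα-KO and 1896 CPM in WT members, Tfrc, the transferrin receptor of the blood-brain barrier, 102 CPM and 2136 CPM, and Slc16a1, a lactate transporter, 136 CPM and 2734 CPM. Of 15 endothelial markers at the minimum, 10 were past 2-fold lower and 0 higher, against 16.4% and 20.4% over all genes of the members. Kdr had 75.5 CPM in the N-PRα-KO core and 72.6 CPM in the WT core, where all 5 WT UMIs came from 1 cell. The core was chosen with an upper limit on 16 endothelial markers, Kdr and Itm2a among them, so their level there is fixed in part by the choice. Itm2a still had 104 CPM in the N-PRα-KO core and 203 CPM in the WT core (log2 -0.97, -1.91 to 0.05), and Tfrc, no gene of that list, 56.6 CPM and 131 CPM (log2 -1.21, -2.44 to 0.13).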

How the data were processed

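Single-cell transcript 3′ ends were counted in 2 BD Rhapsody libraries, 1 per genotype. The authors deposited counts of unique molecules for each gene in each cell. The pipeline was the vendor's WTA Analysis Pipeline, version 1.10 for N-PRα-KO and 1.10.1 for WT, with GENCODE M19, per the file headers. GRCm38 and mm10 are the builds given in the processing notes of the submitters. No label or header used here names the aligner. Depth was 41982217 UMIs over 8336 barcodes (N-PRα-KO) and 43459947 UMIs over 11438 barcodes (WT).

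From these counts, cells were kept and members chosen by the rule stated at the opening, UMIs were summed over cells, and CPM was computed with Python 3.11.15, numpy 2.4.6, scipy 1.17.1 and pandas 2.3.3. Intervals were exact 95% Poisson (CPM, used to check levels), Clopper-Pearson (shares) and conditional binomial (ratios) intervals; they cover counting error only. Counts under 3 over a group were set to 3 in a ratio, and no ratio was taken where both counts were 3 or fewer. The method was run on simulated counts with Poisson error alone. That simulation held no spread between cells, so it cannot check the intervals against such spread. No p-value was computed, since each genotype was 1 library.

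Neighbour classes were cells that passed their own marker minimum and no other vascular limit, except that smooth muscle-like cells could pass the pericyte minimum. Genes were named by fixed numbers of the highest and lowest interval limits nearest 0, from lists, and by variance over mean; mitochondrial, ribosomal, haemoglobin, sex-linked and rule genes were left out of the ranking, and other genes described were chosen after their values were seen. The members and lists were chosen with earlier results of these data known, and the core, the Abcc9 split and their named genes after the data were seen. Doublets were called with Scrublet in scanpy 1.11.5 and left in, at 0.644% of N-PRα-KO and 1.70% of WT kept cells. Alternatives changed the cell filters, minimum level, depth, scaling and membership. Some genes that the naming rule picks are not reported here.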

Additional observations from a re-analysis of the deposited data

Results flagged for a closer look

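The genes looked at were the 2359 compared between the cores, with rule genes left out, whether or not the other classes gave a ratio. Of these, 5 had a core ratio past 2-fold and the opposite sign in all 4 other cell classes, with every interval on its own side of 0. These differences between cell classes were not tested, and with 1 library per genotype they have no replicate check.

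Tinagl1, a basement membrane-associated protein gene, had a log2 ratio of -1.849 in the core (-2.552 to -1.135), with 41 UMIs from 23 N-PRα-KO cells and 32 UMIs from 11 WT cells. In the 4 other classes the ratio lay between 0.8471 and 3.456, and without the cell that held the most UMIs in each library the core ratio was -1.79. Fyn, a Src family kinase, had 1.195 in the core and -1.141 to -0.6588 in the others, with 4 of its 7 WT UMIs from 1 cell and a core ratio of 2.21 without the top cells. Rnf13, a ubiquitin ligase, had 1.494 in the core on 39 N-PRα-KO and 2 WT UMIs, 1.33 without the top cells, and -0.971 to -0.5326 in the others. Nnat, a neuronatin gene of neural and ependymal cells, had -1.156 in the core, but 93 of its 98 WT UMIs came from 1 cell and the ratio without the top cells was 2.99. Ntrk2, the BDNF receptor, had -1.704, with 9 of 12 WT UMIs from 1 cell and 0.03 without the top cells. Tinagl1 was thus the one of the 5 whose WT UMIs came from more than 5 cells.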

How the results depend on the processing

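The ratios between genotypes depended most on which members were used. With the core in place of all members, the shares of kept cells were 1.79% (N-PRα-KO) and 0.238% (WT), and the log2 N-PRα-KO over WT ratio turned its sign for Abcc9 (-0.23), Mcam (-0.079), Tbx18 (-0.57), Casq2 (-0.10), Rgs4 (-0.35), Zic1 (-0.047), Lhfp (-0.25), Cald1 (-0.60), Nampt (0.60), Kdr (0.056) and Slco1c1 (0.016), 11 of 44 named genes. With endothelial-rich members left out, the WT share was 0.358%, and Tbx18 (-0.24), Cald1 (-0.38) and Ptprb (0.35), 3 of 47, turned. Turns of sign, here and above, were counted only for ratios of 2-fold or more either way under the main settings. Smaller ratios could change sign without being counted. No counted ratio within the core, over a neighbour class or in the Abcc9 split turned its sign in any alternative that was run. Sizes moved by over 1.5-fold. Thinning to 2000 UMIs moved 23 of 29 ratios of the Abcc9 split, 16 of 46 in the core, and 7, 8 and 8 of 12 over smooth muscle-, endothelial- and fibroblast-like cells, and the Abcc9-positive core moved 19 of 44.

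A mitochondrial limit of 10% gave member shares of 1.22% (N-PRα-KO) and 0.105% (WT) and core shares of 0.816% and 0%, too few cells for ratios by gene. A pericyte minimum of 0.3% gave a WT share of 0.874%. A minimum of 50 CPM gave 907 genes higher and 664 lower between genotypes in members, 792 lower in the core, 447 higher over smooth muscle-like cells, 599 and 487 over endothelial-like cells and 489 and 432 over fibroblast-like cells. A minimum of 300 CPM gave 125 and 115 in members, 85 and 64 in the core, 44 and 74 over smooth muscle-like, 88 and 93 over endothelial-like and 79 and 84 over fibroblast-like cells. After subtraction of the median ratio of 4 other classes, 156 genes were higher and 244 lower in members, and 127 were higher in the core. Thinning to 2000 UMIs gave 228 higher genes in the core, and the Abcc9-positive core 161 higher and 600 lower. The minimum sets how many genes are looked at, and the other causes were not tested. The 24 WT core cells limit every core ratio. No paired analysis was possible because each genotype was 1 library.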

Other observations

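Adhesion and signalling genes of the core that the comparisons above did not name are given here as values. Itga1, a collagen-binding integrin, had 2645 CPM in the N-PRα-KO core and 2991 CPM in the WT core, and Itgb1, the β1 chain it pairs with, 2026 CPM and 1655 CPM. In N-PRα-KO smooth muscle-like and fibroblast-like cells Itga1 had 1652 CPM and 205 CPM. Itga7, a laminin-binding integrin, went with the Abcc9 split, at 124 CPM in Abcc9-positive and 422 CPM in Abcc9-zero cells of the N-PRα-KO core, and 70.4 CPM and 463 CPM in the WT core. Of 13 integrin and adhesion genes at the minimum, 1 was past 2-fold higher and 2 lower in the N-PRα-KO core than in the WT core, where 16.1% and 16.3% of all genes were. Of 9 Notch genes, 0 were higher and 3 lower, among them Jag1, a Notch ligand, at 78.6 CPM and 247 CPM. Jag1 was also a gene of Abcc9-zero cells, at 49.5 CPM in Abcc9-positive and 157 CPM in Abcc9-zero cells of the N-PRα-KO core, and 70.4 CPM and 339 CPM in the WT core.

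Stress and metabolic lists had few genes at the minimum, and their counts stand beside the same background of 16.1% higher and 16.3% lower and a median of -0.15 over all genes. Of 10 heat shock genes at the minimum, 0 were past 2-fold higher and 3 lower in the N-PRα-KO core, with a median log2 ratio of -0.52. Hspa1a, an inducible chaperone, had 148 CPM in the N-PRα-KO core and 479 CPM in the WT core, and 15 of its 47 N-PRα-KO UMIs came from 1 cell. Of 8 glycolysis and hypoxia genes, 3 were higher and 0 lower, with a median of 0.83. Aldoa, a glycolytic aldolase, had 714 CPM and 407 CPM. Of 4 interferon and MHC class I genes, 3 were higher and 0 lower, and Ifitm3, an antiviral membrane protein, had 802 CPM and 348 CPM. Set against the ratio of the same gene in 4 other cell classes, the medians of the core were -0.27 for heat shock genes, -0.11 for glycolysis and hypoxia genes and -0.40 for interferon and MHC class I genes.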
